A study of Arabidopsis thaliana with 6 samples.

Results

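The genes described here are 8 CC-type glutaredoxin genes of Arabidopsis thaliana, each read by 1 probe set of the 22746 in the table. They are AT5G18600 (probe set 249996_at) on chromosome 5 and 4 genes of a tandem cluster on chromosome 4, AT4G15660 (245504_at), AT4G15680 (245392_at), AT4G15690 (245505_at) and AT4G15700 (245506_at). The others are AT3G62930 (251195_at) and AT3G62950 (251196_at) on chromosome 3, and AT1G03020 (263168_at) on chromosome 1. The platform annotation gave the same 8 loci for these probe sets. The genes were picked by name, with their difference between the groups already in view, so that difference is given as a description and is not tested. Leaves of plants of the ecotype Col0 that carry the transgene AmGSTF1, which encodes a glutathione transferase of a weedy grass, were compared with leaves of wild-type Col0 plants without a transgene. There were 3 arrays per group, which the study calls biological replicates. Plants of both groups came from seeds chilled for 72 hours at 4 °C before sowing and grew on compost at 20 °C with 16-hour days. All leaves of both groups, 10 per replicate, were kept floating for 4 hours on dilute detergent and solvent (0.1% Tween 20 and 0.1% acetone). The promoter of the transgene, the number of transgenic lines and the age of the plants are not given in the sources used here.

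Glutaredoxins are small oxidoreductases that take electrons from glutathione and reduce disulfides or glutathione adducts on other proteins. The CC type is a class of land plants, named after neighbouring cysteines in its active site, and several of its members bind TGA transcription factors in the nucleus. Transcripts of many CC-type genes in Arabidopsis are known to respond to nitrate and to cytokinin, and ROXY1 and ROXY2 of this class act in petal and anther development.

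Values are MAS5 signals on a linear scale, and differences are those of log2(signal + 16), AmGSTF1 minus Col0. A probe set was kept for testing if its mean log2 over the 6 arrays was above the lowest 40%. Of the 8 glutaredoxin probe sets, 3 were kept, those of AT5G18600, AT4G15700 and AT1G03020, and 5 were too dim. The nearest to that limit were AT4G15700 just inside it, at percentile 42.8 of all probe sets by mean log2, and AT4G15660 just outside it, at percentile 37.8. In 4 of the 5 dim ones, the signal lay below the array's own 40% point (68.7 to 84.5) on all 6 arrays. No detection calls were used, so whether these 4 transcripts were present was not determined.

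AT5G18600 had the largest difference of the 8 and was well above the 40% point on all 6 arrays. Its signal was 1429, 1195 and 1637 on the AmGSTF1 arrays, against 145, 913 and 150 on the Col0 arrays. All 3 AmGSTF1 values lay above all 3 Col0 values, but Col0 replicate 2 stood close to the transgenic leaves and 6.20 times above the mean of the other Col0 arrays. The gene reached percentiles 88.9, 86.6 and 90.4 of all signals on the AmGSTF1 arrays, against 49.6, 83.0 and 50.0 on the Col0 arrays. The groups averaged 1420 ± 221 in AmGSTF1 and 403 ± 442 in Col0 (SD, n = 3 each). The difference was 2.29 on the log2 scale, which is 4.89-fold on that scale, and ranked 15 among the 13647 probe sets kept. The SD between arrays was 0.22 on the log2 scale in AmGSTF1, against 1.45 in Col0. A Col0 SD at least as large was found in 0.139% of the probe sets kept.

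The size of this difference depended on the Col0 arrays more than on the AmGSTF1 arrays. Without AmGSTF1 replicates 1, 2 and 3 it was 2.28, 2.41 and 2.18. Without Col0 replicates 1, 2 and 3 it was 1.86, 3.12 and 1.88. Leaves with fewer cells that use a gene and leaves with less of its RNA per cell cannot be told apart in these samples.

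**Figure D1:**
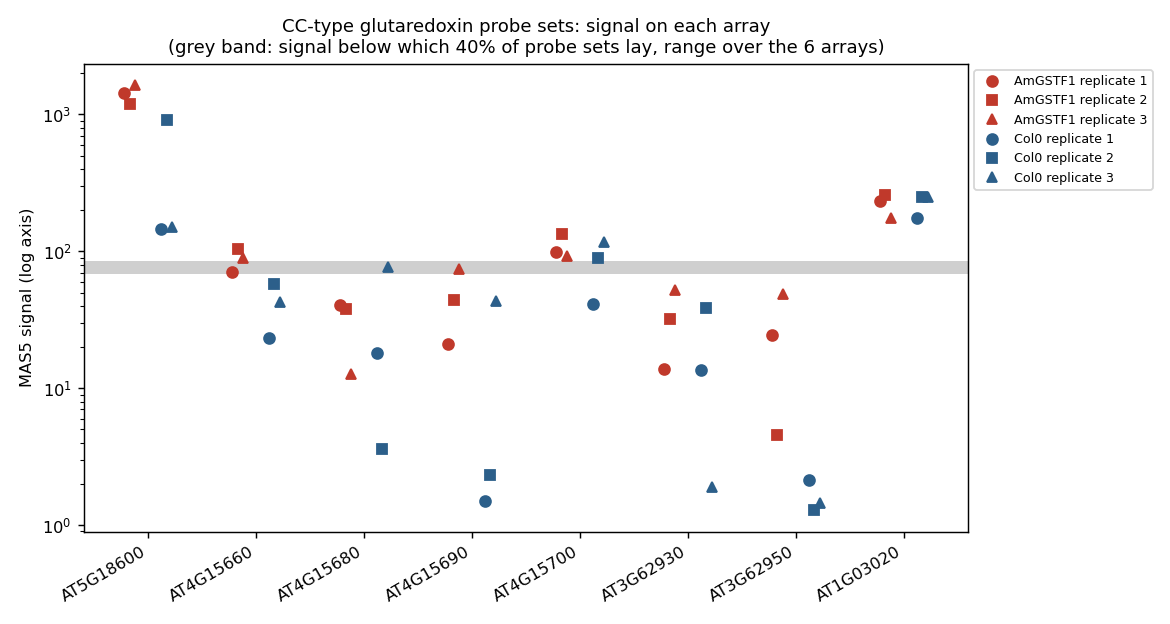
MAS5 signal (log axis) of the 8 CC-type glutaredoxin probe sets on each of the 3 AmGSTF1 arrays (red) and 3 Col0 arrays (blue), with the grey band at the signals below which 40% of probe sets lay (68.7 to 84.5). AT5G18600 lay at 1195 to 1637 in AmGSTF1, with Col0 replicate 2 at 913 and the other Col0 arrays near 150, while most other points lay in or under the band.

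AT1G03020 was also above the 40% point on all 6 arrays, and its values did not separate the groups. Its signal was 232, 258 and 174 in AmGSTF1, against 176, 248 and 251 in Col0. The ranges of the groups were nearly the same, and the difference was -0.02 (pooled SD 0.27 on the log2 scale). It lay between -0.18 without Col0 replicate 1 and 0.13 without AmGSTF1 replicate 3, so its sign was not fixed.

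The tandem cluster on chromosome 4 holds 5 neighbouring genes from AT4G15660 to AT4G15700, and 4 of them were read by a named probe set. AT4G15670 had none and is not analysed here. AT4G15700, the only one of the 4 kept for testing, had signals of 99.1, 134 and 92.7 in AmGSTF1, against 41.0, 89.6 and 118 in Col0. The groups overlapped, and the low value of Col0 replicate 1 carried most of the difference of 0.41, which was 0.05 without that array.

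AT4G15660 had signals of 70.3, 104 and 90.0 in AmGSTF1, against 23.3, 57.7 and 42.8 in Col0. The groups did not overlap, and the difference was 0.89 (pooled SD 0.37 on the log2 scale). Only 2 of its 6 signals were above the 40% point of their array, so the size of the difference depends on the pseudocount. It was 1.15 with a pseudocount of 1 and 0.54 with a pseudocount of 64.

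AT4G15690 had signals of 21.0, 44.1 and 74.6 in AmGSTF1, against 1.51, 2.34 and 43.3 in Col0, where replicate 3 was close to AmGSTF1 replicate 2. AT4G15680 had signals of 40.4, 37.7 and 12.6 in AmGSTF1, against 18.0, 3.60 and 77.2 in Col0, so the highest and the lowest of its 6 values were both from wild-type leaves. In both genes the groups overlapped. The sign of AT4G15680 turned with 1 array, from 0.16 with all arrays to -0.35 without Col0 replicate 2.

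Summed over the 4 probe sets of the cluster, the signal was 231, 320 and 270 in AmGSTF1, against 83.8, 153 and 281 in Col0. Col0 replicate 3 was thus at the level of the transgenic leaves for the cluster, whereas for AT5G18600 it was Col0 replicate 2. The probe sequences were not used here, so how far these neighbouring paralogs share signal was not tested.

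AT3G62930 and AT3G62950 lie on chromosome 3 with the gene AT3G62940 between them, and both were too dim to be kept. AT3G62930 had signals of 13.8, 32.0 and 52.2 in AmGSTF1, against 13.6, 38.3 and 1.91 in Col0, and the groups overlapped. AT3G62950 had signals of 24.7, 4.55 and 48.9 in AmGSTF1, against 2.16, 1.28 and 1.44 in Col0. Its groups did not overlap, but 4.55 in AmGSTF1 replicate 2 was close to the Col0 values. Its difference was 2.89 with a pseudocount of 1 and 0.43 with a pseudocount of 64, and no fold is given at such signals.

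Across the 8 probe sets the difference was above 0 in 7 and below 0 in 1, from -0.02 to 2.29, with a median of 0.74. The median was 0.59 for the 7 without AT5G18600, against 0.05 for all probe sets kept. As 5 of these 7 were too dim to be kept, dim probe sets are the nearer comparison. The median of the 5 was 0.89, against 0.003 for all probe sets not kept. All 5 were at 0.16 or above, as were 36.6% of all probe sets not kept. In 3 of the 8 all AmGSTF1 values exceeded all Col0 values, against 11% of all probe sets in the table. Because the genes were chosen on this comparison, these counts describe the choice. Among the Col0 arrays, replicate 1 was the lowest in 5 of the 8, whereas the highest was replicate 3 in 4, replicate 2 in 3 and replicate 1 in 1.

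**Figure D2:**
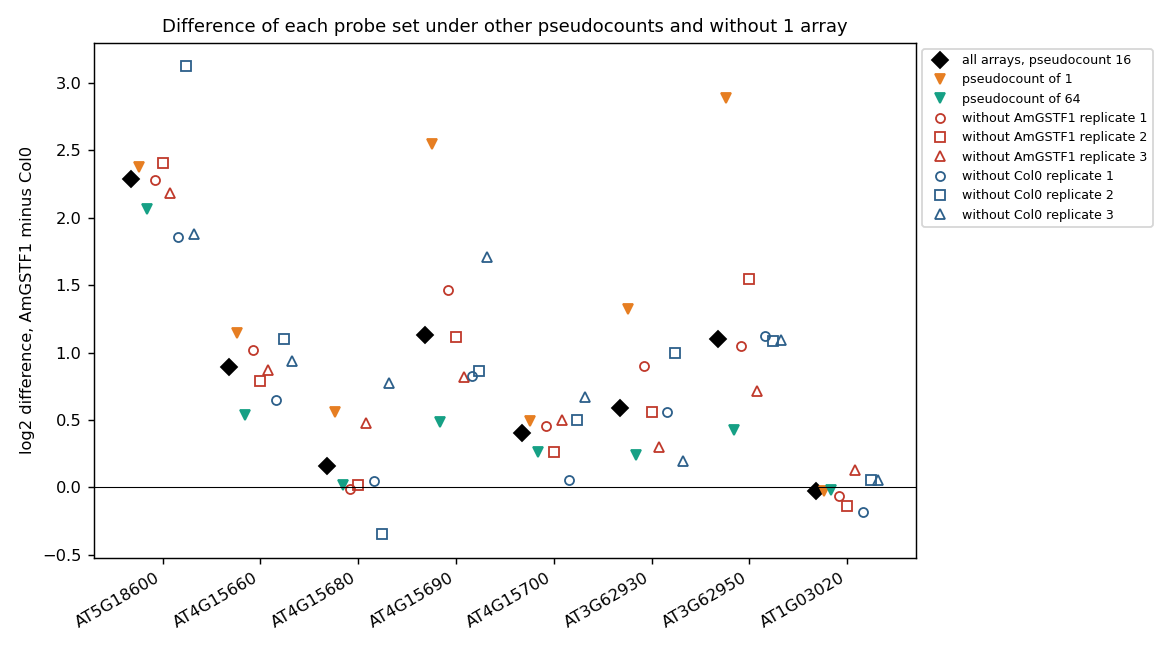
Log2 difference (AmGSTF1 minus Col0) of each of the 8 probe sets with all arrays and a pseudocount of 16 (black diamond), with pseudocounts of 1 and 64 (triangles pointing down) and without 1 array (open symbols, red for AmGSTF1 and blue for Col0). AT5G18600 stayed between 1.86 and 3.12, AT1G03020 lay on both sides of 0, and AT4G15690 and AT3G62950 reached 2.55 and 2.89 only with the pseudocount of 1.

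The genes next to the glutaredoxin genes were looked at after the values were seen. The gene before AT5G18600, AT5G18590, had signals of 942, 876 and 676 in AmGSTF1, against 637, 618 and 775 in Col0. The groups overlapped, and its difference was 0.28 (95% interval -0.09 to 0.66). The gene after it, AT5G18610, was at 4.11 or less on all arrays. Both genes that flank the tandem cluster, AT4G15650 and AT4G15710, were too dim to be tested. AT3G62920, before AT3G62930, had overlapping groups and differed by 0.11 (95% interval -0.60 to 0.83). AT3G62960, after AT3G62950, and AT1G03010, before AT1G03020, were too dim to be tested, with differences of -0.53 and 0.74. Beside AT1G03020, whose level did not separate the groups, AT1G03030 had signals of 368, 414 and 322 in AmGSTF1, against 191, 221 and 172 in Col0. Its log2 signal rose by 0.87 (95% interval 0.48 to 1.25, limma adjusted p = 0.0259). AT1G03030 was the only tested neighbour called, where 5.04% of the probe sets kept were called. The limma adjusted p was 0.115 without AmGSTF1 replicate 1, 0.108 without Col0 replicate 1, 0.0950 without Col0 replicate 3 and 0.0547 where dim probe sets were tested too, with differences of 0.79 to 0.87.

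Other CC-type glutaredoxin genes were measured by 9 named probe sets, of 13 genes listed, and 6 were kept. This list was drawn from the class outside the 8 genes, which were picked with their difference in view. Its counts can therefore reflect that choice and are given as a description. None of the 6 was called by limma (0 higher and 0 lower, where 2.14% and 2.9% of all probe sets were called). All 6 had a lower mean in AmGSTF1, against 44.1% of the probe sets kept, and their median difference was -0.62, against 0.05. Over all 9 measured, dim ones included as for the 8 genes, the median was -0.44. Of the dim ones, ROXY1 and ROXY2 were above 0 (0.06 and 0.19) and AT3G62960 was below it (-0.53). At an unadjusted limma p under 0.05, 4 of the 6 were lower, against 10.7% of the probe sets kept. The same 4 had groups that did not overlap, against 13.1% of the probe sets kept in that direction. All measured genes of this list are given below, beyond the naming rule, because few were measured.

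AT5G11930 had signals of 74.2, 92.5 and 141 in AmGSTF1, against 243, 196 and 190 in Col0. Its difference was -0.96 (95% interval -1.50 to -0.42, limma adjusted p = 0.0526), which just missed the threshold. It passed without AmGSTF1 replicate 3 (-1.18, limma adjusted p = 0.0459) and with 5 other settings (0.0342 to 0.0499), and lay between 0.0501 and 0.191 in the rest. AT2G47880 had signals of 300.5, 108 and 224 in AmGSTF1, against 447, 302 and 465 in Col0. The highest AmGSTF1 value and the lowest Col0 value were almost the same, and the difference was -0.97 (-1.68 to -0.25, limma adjusted p = 0.107). It was -0.59 without AmGSTF1 replicate 2, the lowest of its 6 values.

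AT2G30540 had signals of 129, 93.4 and 156 in AmGSTF1, against 171, 236 and 297 in Col0, with a difference of -0.81 (-1.37 to -0.25). AT4G33040 had signals of 334, 286 and 326 in AmGSTF1, against 483, 387 and 434 in Col0, with a difference of -0.44 (-0.78 to -0.10). In both, every transgenic value was below every wild-type value, with limma adjusted p of 0.0902 and 0.124.

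AT1G06830 differed by -0.12 (95% interval -0.65 to 0.41), and its sign turned without Col0 replicate 3 (0.08). GRX480, a glutaredoxin that binds TGA factors and takes part in salicylate and jasmonate signalling, was well measured. Its signal was 836, 1729 and 1540 in AmGSTF1, against 1384, 1534 and 1610 in Col0. AmGSTF1 replicate 1 alone was low, and the difference of -0.20 (-0.75 to 0.34) was 0.11 without that array. The floral genes ROXY1 and ROXY2 were at 49.2 or less on all arrays and were not tested. AT3G62960, the gene next to AT3G62950, was just too dim to be tested, with signals of 60.0, 37.1 and 69.7 in AmGSTF1, against 63.8, 84.0 and 113 in Col0.

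In 4 of these 6 kept genes the interval of the difference lay below 0, against 10.7% of the probe sets kept. The same 4 had all AmGSTF1 signals below all Col0 signals, against 13.1%. AT5G18600 of the same class had all AmGSTF1 signals above all Col0 signals. The other kept genes of the 8, AT4G15700 (0.41) and AT1G03020 (-0.02), had overlapping groups. The difference between AT5G18600 and the 6 genes was not tested, because AT5G18600 was chosen for its direction and the 6 are among those that choice left.

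**Figure D3:**
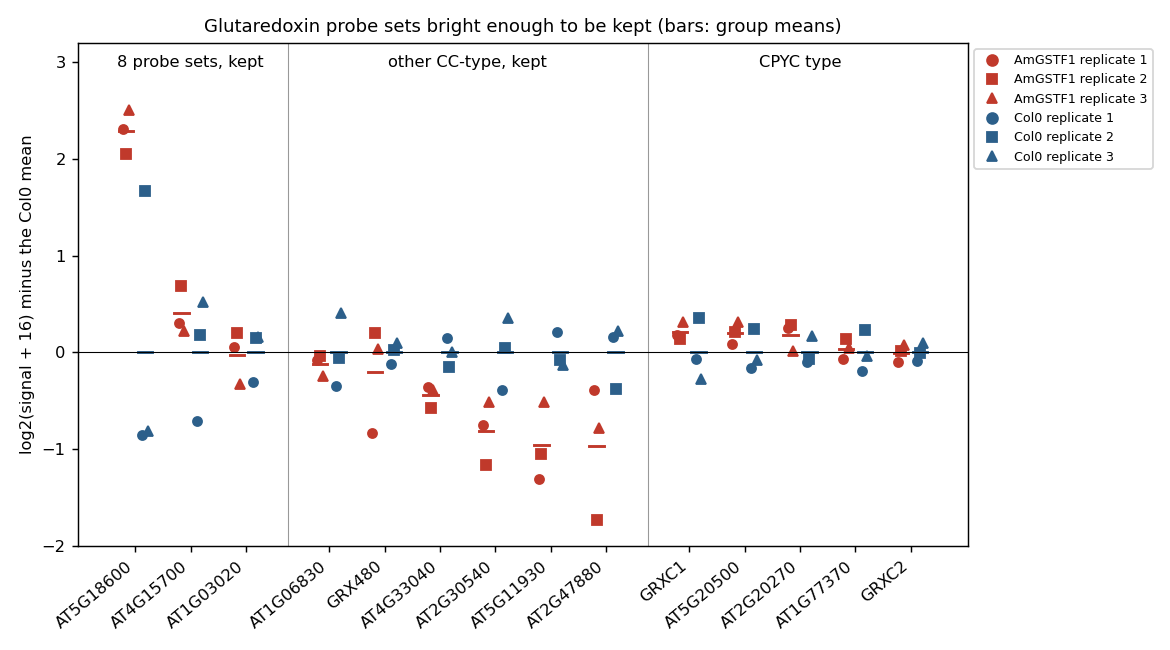
Log2(signal + 16) minus the Col0 mean on each AmGSTF1 array (red) and Col0 array (blue) for the 14 glutaredoxin probe sets bright enough to be kept, with bars at the group means. AT5G18600 averaged 2.29 above the Col0 mean in AmGSTF1, while AT2G47880, AT5G11930, AT2G30540 and AT4G33040 lay below it on all 3 AmGSTF1 arrays. The mean differences of the CPYC type lay between -0.0048 and 0.21.

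Glutaredoxins of the CPYC type had small mean differences. Of 10 listed genes of the CPYC and CGFS types 5 were measured, all of the CPYC type. By limma 0 of the 5 were called, against 5.04% of the probe sets kept. At an unadjusted limma p under 0.05 there were 0 as well, against 23.3% of the probe sets kept. With 5 genes these counts tell little. Their differences lay between -0.0048 and 0.21, with a median of 0.18. The widest interval was that of GRXC1, at 0.21 (95% interval -0.19 to 0.61), with signals of 695, 939 and 602 in Col0. GRXC2 had signals of 9993, 10850 and 11350 in AmGSTF1, against 10090, 10710 and 11490 in Col0. AT5G20500 had the smallest p of the list, with a difference of 0.20 (95% interval -0.12 to 0.52, limma adjusted p = 0.446). The glutathione reductase GR1, which keeps glutathione reduced and so supplies glutaredoxins with electrons, differed by -0.28 (-0.56 to -0.01, limma adjusted p = 0.202). The other glutathione reductase, GR, differed by -0.06 (-0.37 to 0.25). These 2 were the measured genes of a list of 11 thiol reductases, with 0 called by limma and GR1 alone at an unadjusted p under 0.05. No thioredoxin of that list was read by a named probe set.

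Of 18 listed genes of the nitrate response 3 were measured and 2 were tested. By limma 0 of the 2 were called, against 5.04% of the probe sets kept. At an unadjusted limma p under 0.05 there was 1 of the 2, against 23.3% of the probe sets kept. This was AT1G68670, with signals of 538, 457 and 569 in AmGSTF1, against 742, 665 and 704 in Col0 and a difference of -0.43 (95% interval -0.75 to -0.10, limma adjusted p = 0.116). AT1G25550 differed by 0.24 (-0.11 to 0.59). AT3G25790 was too dim to be tested, with a difference of -0.48. The cytokinin response genes ARR15 and RR16 were too dim to be tested, at 125 or less on all arrays. None of 15 listed TGA factors and partners was read by a named probe set, so the proteins that CC-type glutaredoxins bind are not described here.

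The 5 genes nearest to AT5G18600 in the pattern over the 6 arrays were likewise higher in Col0 replicate 2 than in the other Col0 arrays. They were picked by that pattern, so this likeness is part of the choice. How many probe sets share it was not counted. Likeness was measured as the root mean square distance between log2 values centred on each gene's own mean. Measured to AT5G18600 alone, a choice made after the data were seen, the 5 nearest genes were ATG8E (0.36), AT1G56220 (0.45), AT1G15740 (0.47), AT3G15630 (0.47) and AT1G01240 (0.57). ATG8E, which encodes an ATG8 protein of autophagosome membranes, had signals of 963, 452 and 706 in AmGSTF1, against 99.4, 507 and 108 in Col0. As in AT5G18600, Col0 replicate 2 was far above the other Col0 arrays, but here it lay above AmGSTF1 replicate 2. AT1G56220 had signals of 4862, 3891 and 3770 in AmGSTF1, against 289, 1249 and 382 in Col0, without overlap.

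The mean profile of the 3 kept glutaredoxin probe sets was nearest to AT2G07180 (distance 0.12), AT5G16650 (0.14), AT5G37740 (0.16), AT5G52850 (0.16) and SCPL45 (0.17), a serine carboxypeptidase-like gene. AT2G07180 had signals of 988, 924 and 926 in AmGSTF1, against 390, 800 and 502 in Col0. None of these 5 was among the 5 nearest to AT5G18600 alone, and 0 of them were among the nearest without Col0 replicate 1 or without Col0 replicate 2. When fewer or no dim probe sets were left out, 0 were shared as well. There the profile itself differed, as the mean of 7 or 8 glutaredoxin probe sets. Over all probe sets kept, Col0 replicate 2 was the highest Col0 array in 37.2%. The mean profile of the 3 was carried mostly by AT5G18600. Its Col0 SD on the log2 scale was 1.45, against 0.64 in AT4G15700 and 0.27 in AT1G03020. In AT4G15700 Col0 replicate 3 was the highest Col0 array (118, against 89.6 in replicate 2), and in AT1G03020 replicates 3 and 2 were almost equal (251 and 248). In neither did replicate 2 stand alone above the other Col0 arrays, as it did in AT5G18600, so the 3 did not share 1 profile.

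**Figure D4:**
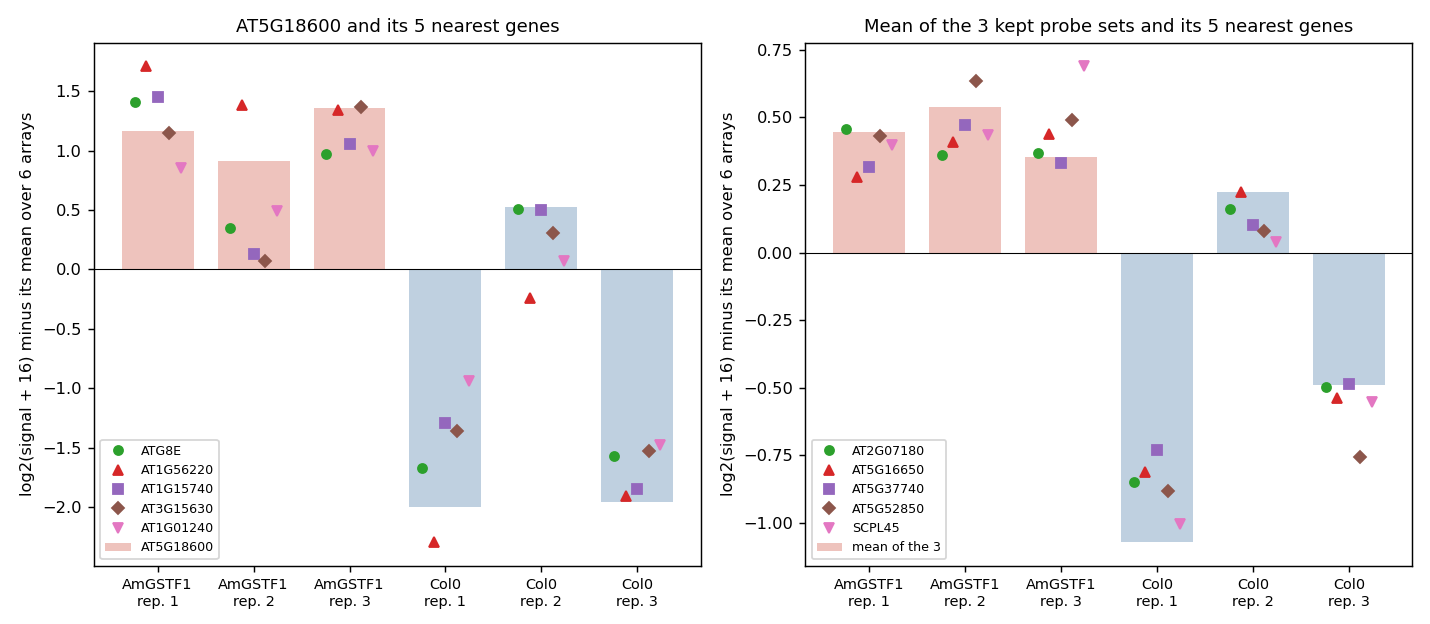
Log2(signal + 16) minus each gene's mean over the 6 arrays, for AT5G18600 (bars, left) and the mean of the 3 kept glutaredoxin probe sets (bars, right), with the 5 nearest genes of each as points. On both sides the AmGSTF1 bars are above 0, Col0 replicates 1 and 3 are below 0 and Col0 replicate 2 is between them. The mean of the 3 is carried mostly by AT5G18600, so the 2 sides are not independent.

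Trimmed mean signals were 496 on all arrays, and 688 of the 13647 probe sets kept (5.04%) were called by limma. RCA, the Rubisco activase of green leaf cells and the only measured gene of 7 listed mesophyll markers, was at 15370 or more on all arrays. Marker genes of other tissues or cell types had 0 calls by limma among the 3 tested. These were 1 of 4 listed guard cell genes, 1 of 4 root genes and 1 of 5 phloem and vascular genes. FMA of guard cells was at -0.55 (95% interval -1.09 to -0.02), PYK10 of roots at 0.63 (-0.21 to 1.48) and the vascular SWEET11 at 0.08 (-0.43 to 0.60, turning to -0.0052 under median centring). FMA had an unadjusted limma p under 0.05, as had 23.3% of the probe sets kept. The other measured root marker, AT5G66390, was too dim to be tested and ran the other way, at 1.24, 3.73 and 22.3 in AmGSTF1, against 36.8, 19.6 and 40.8 in Col0, a difference of -1.01. The summed signal of the 2 root markers, most of it from PYK10, was 81.0 to 177 in AmGSTF1, against 58.1 to 127 in Col0, and their median difference was -0.19. No flower marker was read by a named probe set, and the part of tissue composition in the glutaredoxin values was not tested.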

How the data were processed

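Total RNA of leaves was hybridised to Affymetrix arrays. The deposited signal intensities were made by the authors, per the submitters' processing notes, with MAS5 in Affymetrix Expression Console 1.1, as 1 linear value per probe set. No further normalization was applied. Signals were taken as log2(signal + 16), the 40% of probe sets with the lowest mean were left out, and AmGSTF1 was compared with Col0 with limma 3.58.1 in R 4.3.3 (intensity trend, no replicate term). P-values are two-sided and adjusted over all 13647 probe sets kept. With 3 arrays a group the smallest exact permutation p is 0.1, and no such test was made. The number of arrays limits the precision.

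Names came from the platform annotation (13513 with 1 gene, 503 with several, 8730 unnamed here) and from RefSeq's gene table (TAIR10.1), used for names and neighbours. Genes without a symbol there go by locus, and their class is that of the list. The glutaredoxin genes and all 11 lists were chosen with earlier results of these data known. Of each list, up to 4 called genes or the one with the smallest p were to be named, and the 5 genes nearest in pattern. Where a gene had several probe sets, the brightest was used. The fit was tested on simulated data. Alternatives were other pseudocounts, filters, normalizations, limma settings, the replicate number as a block, and omitting single arrays. Figures were drawn with Python 3.11.15.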

Additional observations from a re-analysis of the deposited data

How the results depend on the processing

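The count of called probe sets (688) was 336 when dim probe sets were tested too, 429 without the intensity trend and 1641 with array weights, and 11 to 1133 on leaving out 1 array. Under median centring 222 were higher and 599 lower, against 292 and 396. The median difference of the 8 glutaredoxin probe sets (0.74) was 1.23 with a pseudocount of 1 and 0.34 with 64, and 0.60 to 0.96 on leaving out 1 array. Genes called in the glutaredoxin-related lists (0) numbered 1, AT5G11930, under quantile, median and loess scaling, robust estimates and array weights, and 0 to 1 on leaving out 1 array. Markers had 0 calls in every setting run. Beyond the number tested, the cause was not tested. Replicate numbers were not taken as pairs, since the deviations of arrays with the same number from their group means had correlations of 0.146, -0.027 and -0.050 (across probe sets). With a replicate block 78 probe sets were called, and AT1G03030 was not among them (limma adjusted p = 0.0582).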
